A study of Mus musculus with 24 samples.

Results

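The genes described here make sterols and fatty acids. They are 35 genes picked by name: 5 regulators, 19 genes of the cholesterol branch and 11 genes of the fatty acid branch. The regulators are Srebf1 and Srebf2, which encode the sterol regulatory element binding proteins (SREBPs), and Scap, Insig1 and Insig2, which control their release. All 35 were found among the 47643 genes counted in plantaris, a fast hindlimb muscle, of wild type C57BL/6 mice. One group of mice breathed normal air (11 samples), and the other was exposed to tobacco smoke for 16 weeks (13 samples). Each library is 1 sample in the labels, and the labels do not say whether each came from its own animal, so p-values measure the spread between samples. Age and sex are not given in the sources used here.

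SREBPs are transcription factors held in the endoplasmic reticulum membrane until sterols run low, when SCAP escorts them to the Golgi to be cut and released to the nucleus. The INSIG proteins keep SCAP in place when sterols are plentiful. SREBP2, from Srebf2, acts mainly on genes of cholesterol synthesis, and SREBP1c, an isoform from Srebf1, mainly on genes of fatty acid synthesis, which insulin and liver X receptors also raise. In muscle tissue, fat cells between the fibres and myelinating Schwann cells of the nerves make large amounts of lipid as well as the fibres themselves.

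Libraries held between 2515697 and 4528845 counts. Values are CPM, counts scaled to library size with the trimmed mean of M-values, and 3 counts, taken as the floor, were worth 0.665 to 1.15 CPM. Differences are log2 ratios of smoke over air with their SE, tested with edgeR's quasi-likelihood F-test. Reads were taken from the 3′ end of transcripts and were not divided by gene length. Levels are compared between samples, and between genes only to name the highest marker of a list. The fast fibre markers Acta1, Ckm and Myh4 were abundant in every library, the lowest value being 23730 CPM for Ckm. The libraries from smoke replicates 2, 10 and 12 stood apart in markers of Schwann cells, the cells that wrap nerve fibres in myelin: the mean log2 CPM of the 11 tested markers was 4.85 to 5.22 in these 3, 3.37 to 4.32 in the 10 other smoke libraries and 2.94 to 3.89 in air. The summed level of all 12 listed markers was 705 to 976 CPM in those 3 libraries, at most 405 CPM in the other smoke libraries and 139 to 319 CPM in air, and no marker was at 0 throughout. The call of Fasn and the leading values of the fatty acid branch are given with and without them.

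No gene of the cholesterol branch was called different between smoke and air, and 1 gene of the fatty acid branch was. Of the 25 members with enough counts to be tested, 1 was called at an adjusted p under 0.05, Fasn, which rose 1.42-fold under smoke. Among all 10159 tested genes, 1.92% were called, 0.728% as higher and 1.19% as lower. The median log2 ratio was 0.20 over the 9 tested fatty acid genes, −0.035 over the 12 tested cholesterol genes and 0.0066 over all tested genes. In the fatty acid branch 7 of 9 tested genes had a positive fold change, and in the cholesterol branch 4 of 12, against 5244 of all 10159 tested genes. At an unadjusted p under 0.05 there were 4 of 9 fatty acid genes, all higher, and 0 of 12 cholesterol genes, against 15.5% of all tested genes (7.55% higher). Without smoke replicates 2, 10 and 12 only Fasn of the 9 fatty acid genes kept an unadjusted p under 0.05 (p = 0.00396 by edgeR), and of the 12 cholesterol genes 0 had one. In that fit no member was called, against 1.44% of all genes tested there, and the medians were 0.080 for fatty acid genes and −0.081 for cholesterol genes. With the Schwann marker score as a covariate no member was called either, and the medians were 0.005 for fatty acid genes and −0.124 for cholesterol genes, with Scd1 at 0.071, Acaca at 0.016 and Acly at 0.13. No test was made of the difference between the branches.

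**Figure D1:**
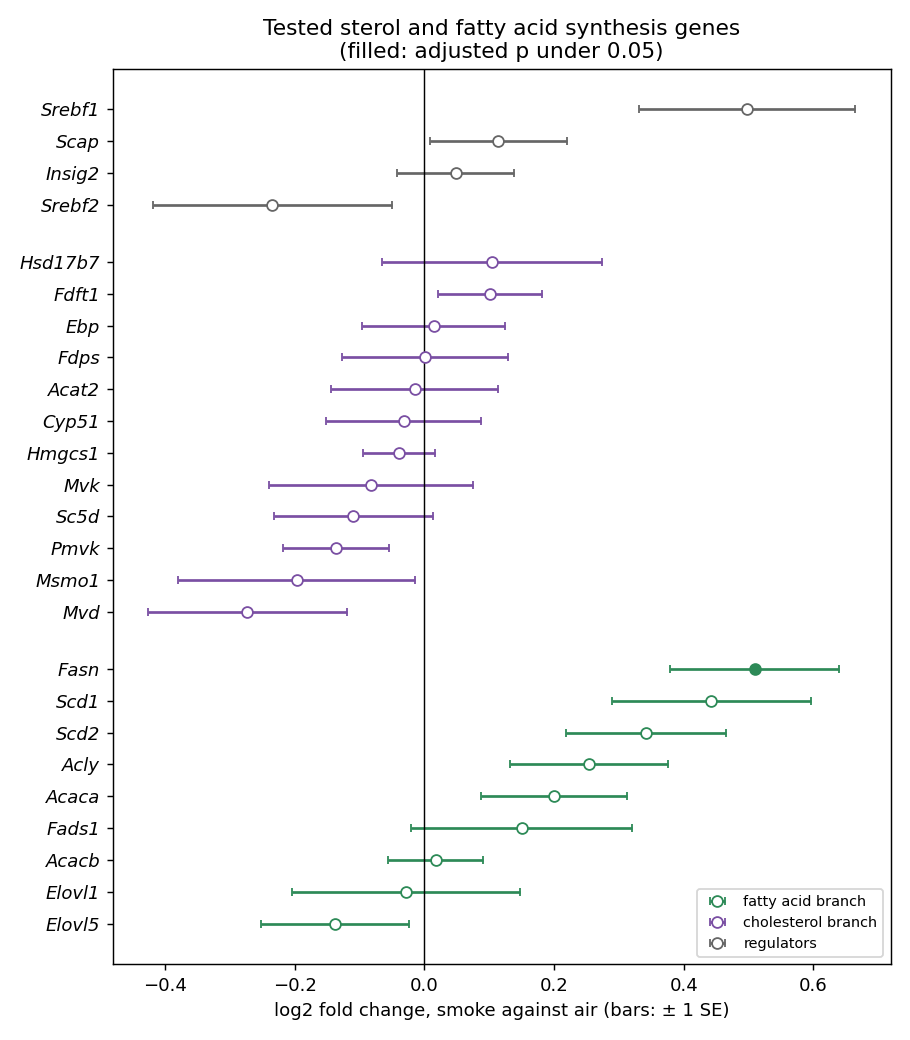
Log2 fold change of smoke against air (horizontal axis, bars of 1 SE) for the 25 tested members, grouped into regulators, cholesterol branch and fatty acid branch; the filled point passed an adjusted p of 0.05. Fasn, at 0.51, is the one filled point, and the cholesterol genes lie between −0.27 and 0.10.

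Among the regulators, none was called. Srebf1, which encodes SREBP1, was at 2.20 to 6.07 CPM in air (median 4.85) and at 3.30 to 8.29 CPM in smoke (median 6.17). Of the 13 smoke samples 11 lay above the air mean and 8 above the highest air sample, and the groups overlapped. Its log2 ratio was 0.50 (SE 0.17, p = 0.114 by edgeR after Benjamini-Hochberg adjustment), and it was 0.51 without the 3 Schwann-high libraries (adjusted p = 0.133 by edgeR). Its counts ran from 8 to 31 a library. Rai1 overlaps it on the opposite strand and Mir6921 and Mir6922 on its own. The counts do not separate its SREBP1a and SREBP1c isoforms.

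Srebf2, which encodes SREBP2, was at 3.23 to 9.39 CPM in air (median 4.49) and 1.98 to 5.77 CPM in smoke (median 3.94), with overlapping groups. Its log2 ratio was −0.23 (SE 0.18, adjusted p = 0.590 by edgeR). Scap, the escort of both SREBPs, was at 14.0 to 29.7 CPM in air and 18.9 to 31.5 CPM in smoke, for a log2 ratio of 0.11 (SE 0.11, adjusted p = 0.670 by edgeR). Insig2, a sterol-sensing anchor of SCAP, was at 16.4 to 27.7 CPM in air and 18.8 to 33.8 CPM in smoke, for a log2 ratio of 0.048 (SE 0.091, adjusted p = 0.862 by edgeR). Insig1, the other anchor and itself a known SREBP target, was at 0.944 to 2.57 CPM in air and 0.281 to 3.33 CPM in smoke and did not pass the filter. The ranges of these 4 genes overlapped between groups.

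The cholesterol branch runs from acetyl-CoA through mevalonate, the isoprenoids and squalene to the sterol ring. Hmgcs1, the cytosolic HMG-CoA synthase that makes the precursor of mevalonate, was the steadiest member. It was at 89.1 to 117 CPM in air (median 97.7) and 83.1 to 113 CPM in smoke (median 97.9), and its coefficient of variation was 7.92% in air and 8.22% in smoke. The groups covered nearly the same range. Its log2 ratio was −0.039 (SE 0.055, adjusted p = 0.803 by edgeR), and the 95% interval from the SE ran from −0.15 to 0.070.

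None of the other tested enzymes was called, with or without the 3 Schwann-high libraries, although without them Mvk moved from −0.083 to −0.16 and Cyp51 from −0.032 to −0.11 on the log2 scale. Acat2, here the cytosolic acetoacetyl-CoA thiolase of the first step, was at 7.15 to 14.5 CPM in air and 7.33 to 13.8 CPM in smoke. The mevalonate kinase gene Mvk was at 6.11 to 16.3 CPM in air and 5.38 to 15.0 CPM in smoke. Pmvk, which adds the next phosphate, was at 25.99 to 37.8 CPM in air (median 27.0) and 21.1 to 32.6 CPM in smoke (median 25.0). For Pmvk the log2 ratio was −0.14 (SE 0.081, adjusted p = 0.446 by edgeR). Mvd, the decarboxylase that yields isopentenyl diphosphate, was at 7.28 to 20.1 CPM in air (median 14.4) and 6.72 to 16.7 CPM in smoke (median 11.4). It had the most negative value of the branch, a log2 ratio of −0.27 (SE 0.15, adjusted p = 0.406 by edgeR), and 9 of the 13 smoke libraries lay under the mean of air. Gm20388 overlaps Mvd on the opposite strand.

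Fdps, which joins isoprene units into farnesyl diphosphate, was at 6.57 to 12.7 CPM in air and 7.41 to 13.2 CPM in smoke. The sign of its fold change, 0.0003 on the log2 scale (SE 0.13), turned under 8 settings, RLE scaling and DESeq2 among them, and in 13 of the 24 fits that left out 1 library. Fdft1, squalene synthase and the first enzyme committed to sterols, was at 49.1 to 73.3 CPM in air (median 61.2) and 51.5 to 81.7 CPM in smoke (median 62.5), a log2 ratio of 0.10 (SE 0.080, adjusted p = 0.598 by edgeR). The cathepsin gene Ctsb overlaps Fdft1 on the opposite strand.

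Of the genes that trim and finish the sterol ring, Cyp51, lanosterol demethylase, was at 8.08 to 14.5 CPM in air and 8.57 to 14.7 CPM in smoke. Msmo1, the sterol C4-methyl oxidase, was at 4.09 to 12.5 CPM in air and 3.03 to 8.11 CPM in smoke, for a log2 ratio of −0.20 (SE 0.18, adjusted p = 0.671 by edgeR). Hsd17b7, a reductase of the same demethylation, was at 3.13 to 7.50 CPM in air and 1.91 to 8.42 CPM in smoke. Ebp, the sterol isomerase, was at 17.5 to 29.2 CPM in air and 14.4 to 32.2 CPM in smoke. Sc5d, the sterol C5-desaturase, was at 6.93 to 12.9 CPM in air and 6.60 to 12.6 CPM in smoke. In each of these genes the smoke range overlapped the air range, and the adjusted p-values of all 12 tested genes of the branch ran from 0.406 to 1 (edgeR quasi-likelihood).

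**Figure D2:**
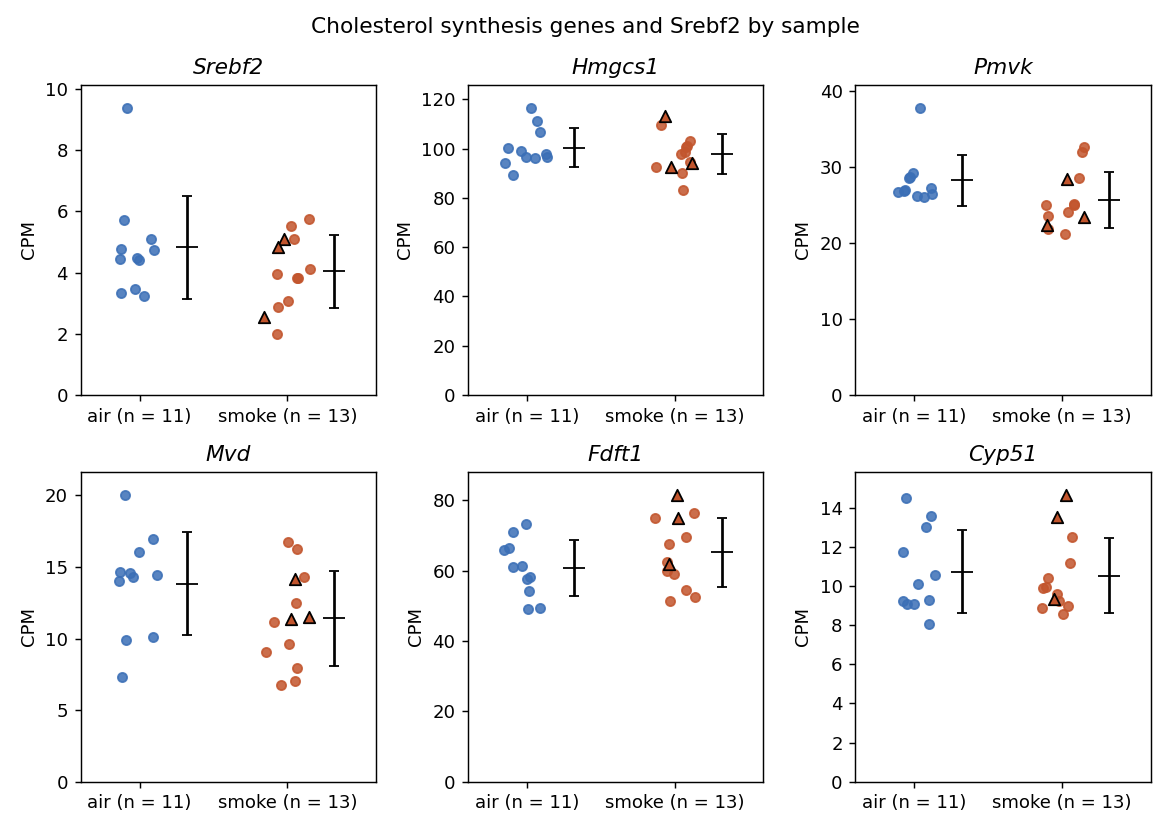
CPM of Srebf2 and 5 cholesterol synthesis genes in each of 11 air and 13 smoke samples; black bars are the mean ± 1 SD, and triangles are smoke replicates 2, 10 and 12. Points of both groups overlap in every panel, with Hmgcs1 between 83.1 and 117 CPM.

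The other 7 cholesterol genes did not pass the filter on low counts. They were the sterol transfer protein gene Stard4, the isomerase gene Idi1, squalene epoxidase (Sqle), lanosterol synthase (Lss), the sterol reductase genes Tm7sf2 and Dhcr7, and Nsdhl, which acts in C4 demethylation. Sqle, a rate-controlling step, had 1 to 9 counts per library in air and 1 to 11 in smoke. Lss had 1 to 6 counts in air and 0 to 10 in smoke. Idi1 had 1 count in all 11 air libraries together and 0 in the 13 smoke libraries, each library allowing up to its 3-count floor. Tm7sf2, which shares its strand and position with Vps51, had 1 to 6 counts in air and 1 to 3 in smoke, and 1 of 13 smoke samples lay above the air mean. In a fit with no filter, Tm7sf2 had an adjusted p of 0.507 (edgeR quasi-likelihood). At this depth no difference in these 7 genes was detectable.

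The fatty acid branch turns citrate into malonyl-CoA, joins it into palmitate, and then desaturates and elongates the chain. Fasn, fatty acid synthase, which carries out all steps to palmitate, was at 31.1 to 69.9 CPM in air (median 40.4) and at 43.2 to 109 CPM in smoke (median 63.0). Of 13 smoke samples 12 lay above the air mean and 3 above the highest air sample, while 6 of 11 air samples lay below the lowest smoke sample. The mean was 46.3 ± 13.4 CPM in air (SD, n = 11) and 65.7 ± 16.7 CPM in smoke (SD, n = 13), a log2 ratio of 0.51 (SE 0.13, p = 0.0308 by edgeR after Benjamini-Hochberg adjustment). Fasn lies on chromosome 11 (120805846 to 120824547, minus strand, GRCm38), with no annotated gene overlapping it. In bulk tissue more cells that express Fasn and more Fasn RNA per cell cannot be told apart.

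The highest Fasn value, 109 CPM, was smoke replicate 2, and replicates 10 and 12 were at 79.1 and 67.4 CPM. The 10 other smoke samples were at 43.2 to 78.0 CPM (mean 59.9 ± 10.1, SD). Without the 3 Schwann-high libraries the log2 ratio of Fasn was 0.38 (SE 0.12) and it was not called (adjusted p = 0.122 by edgeR). With the Schwann marker score as a covariate the log2 ratio was 0.28 (SE 0.14, adjusted p = 0.410 by edgeR). The call was near the threshold in single samples too: leaving out any of air replicates 3, 5, 7, 8, 9 or 10 or smoke replicates 2 or 8 ended it, with edgeR adjusted p-values up to 0.069, while the log2 ratio stayed between 0.43 and 0.58. The Schwann marker score was above the air mean in all 13 smoke samples, so the covariate and the exposure go together. The 3 libraries left out ranked 1, 2 and 7 in Fasn among all 24 samples, so leaving them out lowers its smoke mean. The part of Schwann cell RNA in the Fasn difference was not tested, and these fits cannot single it out.

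The sequences upstream of Fasn, the gene that was called, and of Hmgcs1, the steadiest cholesterol gene, are printed because SREBPs act on both. They are the 250 bases before each start site from RefSeq (GRCm38.p6), Fasn at chr11:120824548-120824797 on the minus strand and Hmgcs1 at chr13:119690101-119690350 on the plus strand, 5′ to 3′ along the gene. Capitals mark the SREBP consensus TCACNCCAC, the NF-Y box CCAAT or the E-box CACGTG on either strand.
Fasn: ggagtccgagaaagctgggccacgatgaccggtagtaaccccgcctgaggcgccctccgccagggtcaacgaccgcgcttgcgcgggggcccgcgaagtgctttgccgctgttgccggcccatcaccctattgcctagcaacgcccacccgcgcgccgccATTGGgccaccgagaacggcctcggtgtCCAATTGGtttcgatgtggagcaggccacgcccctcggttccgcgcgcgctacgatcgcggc
Hmgcs1: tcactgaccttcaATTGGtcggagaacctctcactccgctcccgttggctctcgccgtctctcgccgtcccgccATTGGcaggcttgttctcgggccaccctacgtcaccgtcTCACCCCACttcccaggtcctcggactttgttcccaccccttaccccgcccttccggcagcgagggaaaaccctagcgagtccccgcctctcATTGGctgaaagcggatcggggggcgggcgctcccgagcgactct
Hmgcs1 holds 1 match to TCACNCCAC, 137 to 129 bases upstream of its start, and 3 CCAAT boxes, all on the reverse strand. Fasn holds 3 CCAAT boxes and no match to TCACNCCAC, and 2 of its boxes overlap each other. Neither window holds CACGTG. Among all 32851 RefSeq windows of this length, 1.05% held TCACNCCAC, 33.8% CCAAT and 6.02% CACGTG. Windows were found for 28 members and not for Fads1, Fdft1, Fdps, Scd1, Scd2, Sqle and Stard4. Counted by window, the unit of those shares, a gene with several starts having several windows, CCAAT was in 14 of 18 windows of cholesterol genes, 4 of 9 of fatty acid genes and 5 of 10 of regulators. TCACNCCAC was in 1 of the 18 cholesterol windows, that of Hmgcs1, and in 0 of 9 and 0 of 10 of the others. CACGTG was in 3 of 18, 1 of 9 and 2 of 10 windows.

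Scd1, the stearoyl-CoA desaturase typical of fat and liver, was at 70.9 to 182 CPM in air (median 113) and 104 to 299 CPM in smoke (median 150). The upper end of the smoke group was replicates 2 and 10, at 299 and 281 CPM, the only smoke samples above the highest air sample. Its log2 ratio was 0.44 (SE 0.15, adjusted p = 0.130 by edgeR), and 0.19 without the 3 Schwann-high libraries (adjusted p = 0.525 by edgeR). Scd1 was called in a fit with no filter on low counts (adjusted p = 0.0448 by edgeR) and with 1 surrogate variable (adjusted p = 0.0275 by edgeR).

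Scd2, the desaturase found in nerve and brain, was at 32.4 to 59.1 CPM in air (median 44.7) and 37.3 to 86.1 CPM in smoke (median 48.5). Its 3 highest values among all 24 samples, 80.2 to 86.1 CPM, were smoke replicates 2, 10 and 12, and the 10 other smoke samples had a median of 47.1 CPM. The log2 ratio was 0.34 (SE 0.12, adjusted p = 0.146 by edgeR), 0.14 without those 3 libraries (adjusted p = 0.590 by edgeR) and −0.095, with the sign turned, with the Schwann marker score as a covariate.

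Acly, the ATP citrate lyase that makes cytosolic acetyl-CoA, was at 12.8 to 24.5 CPM in air (median 15.7) and 14.1 to 27.8 CPM in smoke (median 20.7). In 9 of the 13 smoke libraries it exceeded the mean of air, with a log2 ratio of 0.25 (SE 0.12, adjusted p = 0.304 by edgeR). The microRNA gene Mir7116 lies within Acly on the same strand. Acaca, the acetyl-CoA carboxylase that feeds synthesis, was at 11.8 to 20.8 CPM in air (median 15.9) and 13.6 to 26.7 CPM in smoke (median 19.1), above the air mean in 10 of 13. Its log2 ratio was 0.20 (SE 0.11, adjusted p = 0.410 by edgeR), and its 2 values above the air range were smoke replicates 2 and 10. Without the 3 Schwann-high libraries the log2 ratio was 0.16 for Acly and 0.080 for Acaca.

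Acacb, the mitochondrial carboxylase whose malonyl-CoA restrains fat oxidation rather than feeding synthesis, was at 90.0 to 128 CPM in air (median 111) and 79.8 to 145 CPM in smoke (median 111). The medians were close, and the log2 ratio was 0.017 (SE 0.073, adjusted p = 0.946 by edgeR), with a 95% interval from −0.13 to 0.16. The elongase genes Elovl1 and Elovl5 had log2 ratios of −0.029 (SE 0.18) and −0.14 (SE 0.11), and the desaturase gene Fads1 had 0.15 (SE 0.17), with edgeR adjusted p-values from 0.619 to 0.963. In all 3 the groups overlapped. Without the 3 Schwann-high libraries Elovl1 was at −0.19 and Fads1 at 0.023. Elovl6, which lengthens palmitate, had 2 to 8 counts in air and 2 to 22 in smoke and was not tested; its highest level, 7.02 CPM, was smoke replicate 2. Fads2, the other polyunsaturated desaturase gene, had 6 counts over all air libraries and 7 over all smoke libraries.

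**Figure D3:**
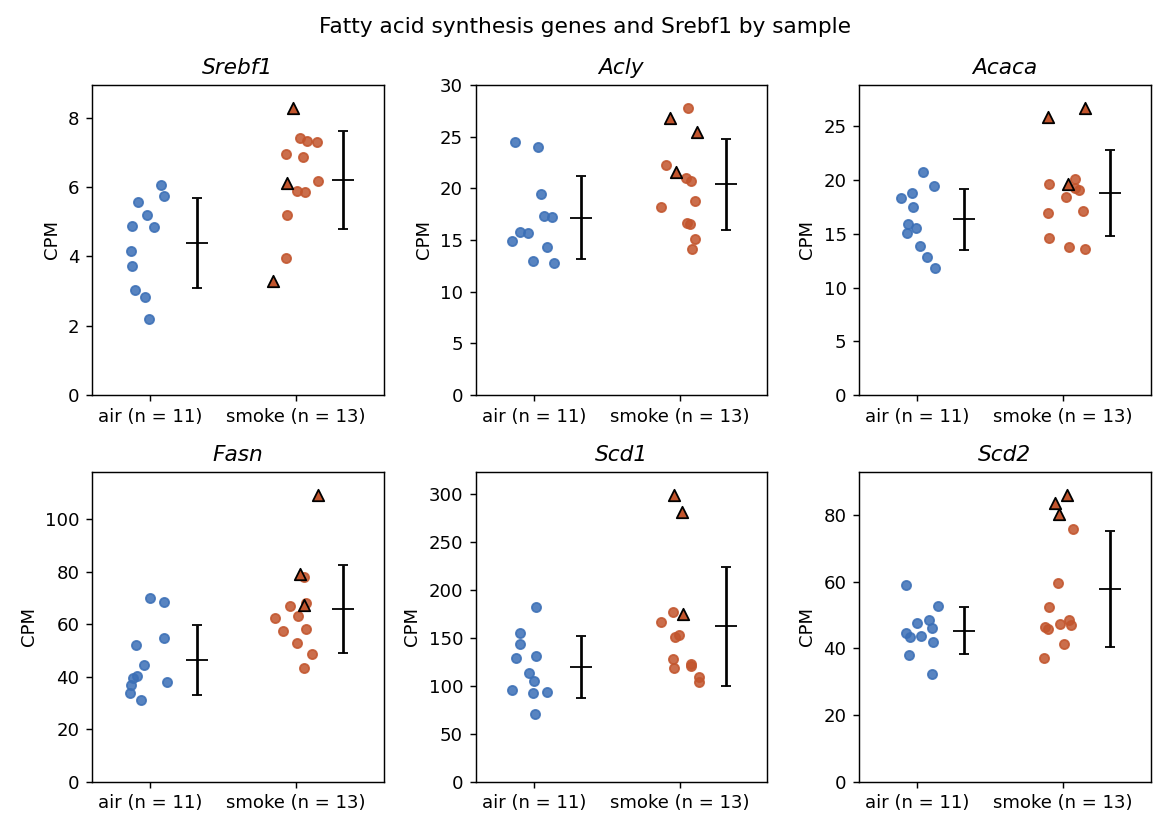
CPM of Srebf1 and 5 fatty acid synthesis genes in each of 11 air and 13 smoke samples; black bars are the mean ± 1 SD, and triangles are smoke replicates 2, 10 and 12. For Scd2 the 3 triangles, at 80.2 to 86.1 CPM, are the highest points, and for Fasn 12 of 13 smoke samples lie above the air mean of 46.3 CPM.

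Averaged per sample over tested members as log2 CPM, the cholesterol branch was at 3.86 to 4.18 in air (median 4.01) and 3.81 to 4.09 in smoke (median 3.98). The fatty acid branch was at 4.52 to 5.04 in air (median 4.73) and 4.64 to 5.48 in smoke (median 4.94). Only smoke replicates 2, 10 and 12, at 5.20 to 5.48, lay above the air range of the fatty acid branch. The difference of the branch scores, fatty acid minus cholesterol, was 0.58 to 0.96 in air (median 0.78), 0.75 to 1.14 in the 10 other smoke samples (median 0.88) and 1.22 to 1.39 in those 3.

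Among lists of genes around the pathway 1 gene was called. Of 18 tested genes of SREBP processing, nuclear receptors and cofactors, 0 were called (1 had an unadjusted p under 0.05, edgeR). These include Mbtps1 and Mbtps2, the proteases that cut SREBPs, the liver X receptor genes Nr1h2 and Nr1h3, and Mlxipl, which encodes the glucose-responsive factor ChREBP. Of 8 tested genes that supply acetyl-CoA, citrate and NADPH, 0 were called (2 at an unadjusted p under 0.05, edgeR). The largest value there was for Slc25a1, the mitochondrial citrate carrier, at 2.39 to 8.00 CPM in air and 3.37 to 12.4 CPM in smoke, for a log2 ratio of 0.59 (SE 0.19, adjusted p = 0.108 by edgeR). Mlycd, which breaks down malonyl-CoA, lay under the mean of air in 13 of the 13 smoke libraries, at a log2 ratio of −0.20 (SE 0.061, adjusted p = 0.0761 by edgeR). Slc25a1 and Mlycd were singled out after their values were seen.

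Of 9 tested genes of cholesterol transport and efflux, 0 were called (2 at an unadjusted p under 0.05, edgeR), and 7 had a positive fold change. Of 11 tested genes of further elongation and triglyceride synthesis, 1 was called, and 4 had an unadjusted p under 0.05 (1 higher and 3 lower, edgeR). This was Dgat2, the enzyme of the last step of triglyceride synthesis, which fell under smoke. Dgat2 was at 35.3 to 72.7 CPM in air (median 42.5) and 28.7 to 47.9 CPM in smoke (median 32.7), and 12 of 13 smoke samples were below the air mean. Its log2 ratio was −0.39 (SE 0.10, adjusted p = 0.0329 by edgeR). Without the 3 Schwann-high libraries it was −0.42 (adjusted p = 0.0424 by edgeR), so that Dgat2 was called in both fits, unlike Fasn.

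Markers of other cell types were read in the same fit. Of 11 tested Schwann cell markers all 11 had a positive fold change and 6 were called higher, among them Pmp22, Prx, Gldn, Ncmap and Drp2. Pmp22, a membrane protein of compact myelin, was at 23.4 to 42.8 CPM in air and 27.8 to 142 CPM in smoke, for a log2 ratio of 0.88 (SE 0.24, adjusted p = 0.0481 by edgeR). Without the 3 libraries Pmp22 was at 0.28 (adjusted p = 0.352 by edgeR) and lost its call, as did Prx, which went from 1.48 to 0.485 (adjusted p = 0.327 by edgeR). Ncmap went from 1.76 to 0.74 (adjusted p = 0.206 by edgeR) and Drp2 from 1.42 to 0.52 (adjusted p = 0.376 by edgeR), and both calls were lost. Gldn did not pass the filter on low counts without those libraries. Of 10 tested adipocyte markers 6 had a positive fold change and 1 was called, Plin4, a lipid droplet protein that muscle fibres also express, which fell by 0.25 on the log2 scale (adjusted p = 0.0481 by edgeR). At an unadjusted p under 0.05 there were 5 of these 10, with Cfd, Retn and Pck1 higher (log2 ratios 0.29, 0.37 and 0.38) and Plin4 and Lep lower (Lep −1.22, adjusted p = 0.0914 by edgeR). Adipoq, the fat cell hormone adiponectin, was at 27.1 to 83.6 CPM in air and 32.8 to 84.5 CPM in smoke, for a log2 ratio of 0.12 (adjusted p = 0.764 by edgeR). The summed adipocyte markers, of which none was at 0 throughout, were at 1570 to 3140 CPM in air and 1720 to 3000 CPM in smoke, with Cfd the highest marker. In smoke replicates 2, 10 and 12 that sum was 2100 to 3000 CPM, against at most 2230 CPM in the other smoke libraries. The part of these cell types in the fatty acid genes was not tested.

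Of 5 blood cell markers, led by Hbb-bs, 3 were called lower: Hbb-bs, Hbb-bt and Hba-a2. Their log2 ratios were −0.84, −0.73 and −0.67. With the Schwann marker score as a covariate they were −0.90, −0.75 and −0.73, and none of the 3 was called (adjusted p = 0.0779, 0.111 and 0.126 by edgeR). Of 8 fibroblast and endothelial markers (highest Dcn) and 4 tested macrophage markers (highest Lyz2), 0 were called (3 and 0 at an unadjusted p under 0.05, edgeR). Those 3 were all lower, and 7 of the 8 fibroblast and endothelial markers and all 4 macrophage markers had a negative fold change. Of 14 tested clock genes 5 were called: Nfil3 lower, and Dbp, Per3, Nr1d2 and Bhlhe40 higher. Without the 3 Schwann-high libraries Nr1d2 was no longer called (adjusted p = 0.0529 by edgeR), with its log2 ratio at 0.28 in both fits. With the covariate Per3 (adjusted p = 0.157 by edgeR) and Nr1d2 (adjusted p = 0.1 by edgeR) were not called, while Nfil3, Dbp and Bhlhe40 were. The labels give no time of day for the collection of either group.

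Within groups, members were related to marker scores and to each other in 7 relations over air and over smoke, 14 in all, because Sqle, planned as an eighth pair, was not tested. The relations over the 10 smoke samples other than replicates 2, 10 and 12, another 7, were added after the marker values were seen and adjusted over those 7. Scd2 was related to the Schwann marker score over the 11 air samples: Pearson's r was 0.85 (permutation p = 0.00173, adjusted p = 0.00484) and Spearman's rho 0.82 (permutation p = 0.00323, adjusted p = 0.00904). Without the 2 samples farthest from the median score, r was 0.60. In the 10 other smoke samples r was 0.88 (permutation p = 0.00119, adjusted p = 0.00833) and rho 0.82 (permutation p = 0.00613, adjusted p = 0.0429), and r was 0.74 without 2 samples. For Hmgcs1 the relation did not pass: r was 0.30 in air (permutation p = 0.364, adjusted p = 0.425; rho 0.38, permutation p = 0.247) and 0.36 in the 10 other smoke samples (permutation p = 0.302, adjusted p = 0.528; rho 0.37, permutation p = 0.298). Without 2 samples r was −0.22 and 0.50.

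Scd1 followed the adipocyte marker score in smoke (n = 13), with r 0.86 (permutation p = 0.00015, adjusted p = 0.0007) and rho 0.88 (permutation p = 0.00015, adjusted p = 0.00105), and r was 0.73 without 2 samples. In the 10 other smoke samples r was 0.69 (permutation p = 0.0289, adjusted p = 0.0674; rho 0.77, permutation p = 0.0127, adjusted p = 0.0444), and 0.47 without 2. In air r was 0.71 (permutation p = 0.0137, adjusted p = 0.0274; rho 0.61, permutation p = 0.052, adjusted p = 0.091), and 0.17 without replicates 1 and 10, so that it rested on those samples. Fasn with the same score had r 0.64 in air (permutation p = 0.0256, adjusted p = 0.0448; rho 0.66, permutation p = 0.0302, adjusted p = 0.0604) and 0.73 in smoke (permutation p = 0.00618, adjusted p = 0.0144; rho 0.62, permutation p = 0.0282, adjusted p = 0.0604). These fell to 0.20 and 0.48 without 2 samples, and r was 0.29 in the 10 other smoke samples (permutation p = 0.416; rho 0.35, permutation p = 0.331). Acly had r 0.36 in air (permutation p = 0.277; rho 0.56, permutation p = 0.0775) and 0.38 in smoke (permutation p = 0.206; rho 0.39, permutation p = 0.195), and neither passed adjustment. Without 2 samples these were 0.48 and 0.017.

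Fasn and Scd1 moved together in both groups. In air r was 0.89 (permutation p = 0.00025, adjusted p = 0.000875) and rho 0.86 (permutation p = 0.00127, adjusted p = 0.00445). In smoke r was 0.86 (permutation p = 4e-05, adjusted p = 0.00028) and rho 0.81 (permutation p = 0.00105, adjusted p = 0.00445). Without 2 samples r was 0.81 and 0.72. In the 10 other smoke samples r was 0.71 (permutation p = 0.0222, adjusted p = 0.0674; rho 0.72, permutation p = 0.024). No relation of Srebf1 to Fasn was detected at this depth: r was −0.10 in air (permutation p = 0.764; rho −0.17, permutation p = 0.615) and 0.006 in smoke (permutation p = 0.984; rho −0.099, permutation p = 0.751), and 0.13 and 0.52 without 2 samples.

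**Figure D4:**
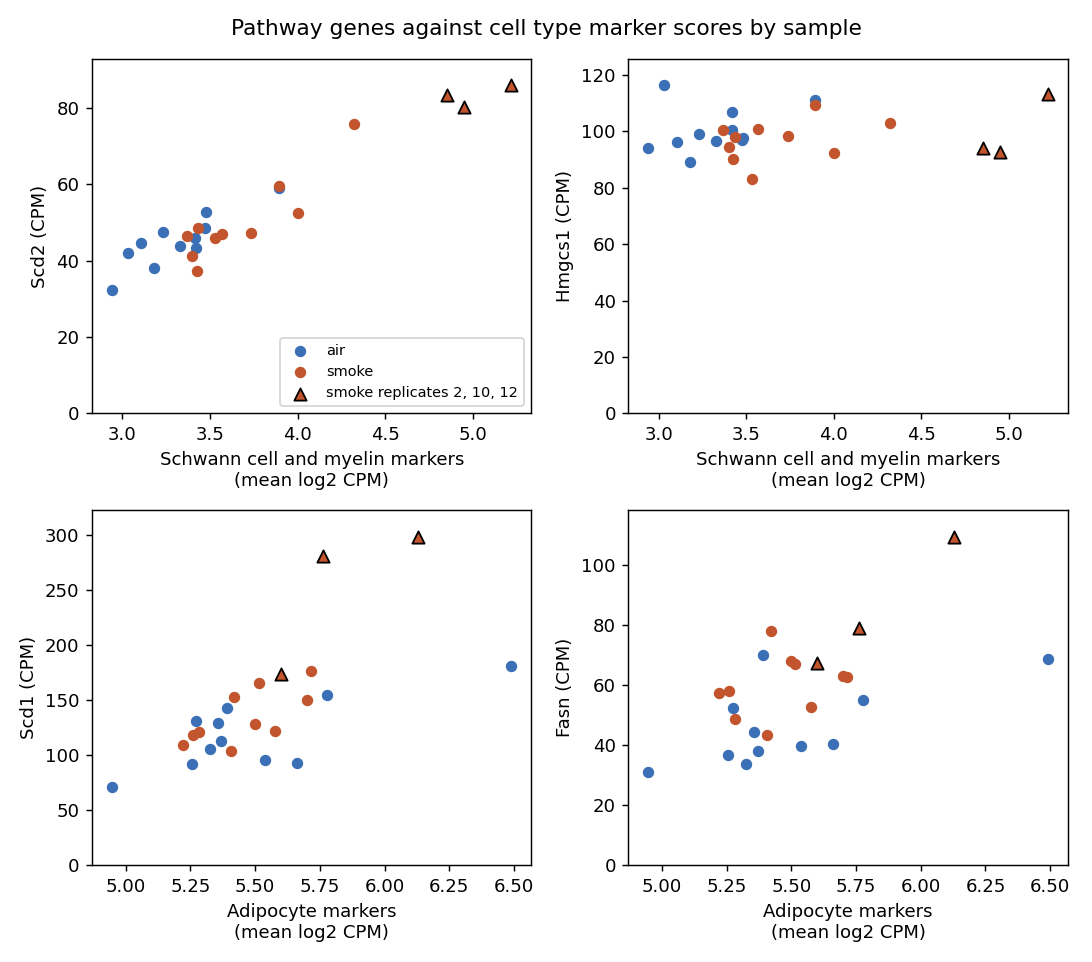
CPM of Scd2 and Hmgcs1 against the Schwann marker score, and of Scd1 and Fasn against the adipocyte marker score (mean log2 CPM per sample), for 11 air and 13 smoke samples; triangles are smoke replicates 2, 10 and 12. Scd2 climbs along the Schwann score to 86.1 CPM while Hmgcs1 stays between 83.1 and 117 CPM.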

How the data were processed

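Plantaris RNA was extracted on columns and made into QuantSeq 3′ forward libraries, per the labels' protocols. The authors deposited raw read counts per Ensembl gene ID, 1 column per sample. The submitters' processing notes name STAR, DESeq2 and the build mm9 without role or version. The counting tool, annotation, strand and any use of molecular identifiers are not given in the sources used here. Reads may include PCR copies, so floors cover counting error only, and genes overlapping another are uncertain. Not every overlap is named above. Among others, Cyp51 overlaps Akap9 and Hmgcs1 overlaps Gm48342 on the opposite strand, and Srebf2, Fdps, Acaca and Scd2 overlap genes on their own strand. Symbols and positions came from GENCODE M21 (GRCm38), which held 47224 of 47643 IDs (99.1%) and is not the build in the notes. The file holds no positions.

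Genes were filtered by filterByExpr (minimum count 10), scaled by TMM and tested with edgeR 4.0.16 (quasi-likelihood, R 4.3.3) on all 24 samples, with Benjamini-Hochberg adjustment over 10159 genes. SEs are the log2 ratio divided by the square root of F. The fits were tested on simulated data. Correlations used two-sided permutation tests (100000 resamples) on log2 CPM (prior count 2), adjusted over 14 relations, or over 7 for the 10 other smoke samples. DESeq2 1.42.0, limma 3.58.1 and sva 3.50.0 served as alternatives, beside other scalings, filters, a replicate block and samples left out in turn. Leaving out the 3 Schwann-high libraries and the Schwann covariate were chosen after seeing the data. Chi-square per gene over 133 pairs of samples within groups was 2.52 or more, so none were merged.

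Members and lists were chosen with earlier results of these data known. By rule, all 35 members are accounted for, and called genes and the highest marker of each list are named. 1 marker gene that the rule would name is not reported here.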

Additional observations from a re-analysis of the deposited data

How the results depend on the processing

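Members kept direction and side of the threshold in 808 of 875 comparisons with alternatives. Against 195 genes called, DESeq2 gave 323, 1 surrogate variable 444 and the Schwann score covariate 78; the cause was not tested. No cholesterol gene was called when samples were left out in turn. Members called, all of the fatty acid branch, were 2 with no low-count filter and 2 with 1 surrogate variable (Fasn and Scd1). They were 0 without the 3 Schwann-high libraries and 0 with the covariate. Over the samples left out in turn members called were 0 to 1, and genes called 141 to 254. With a prior count of 0.5, Fasn with the adipocyte score in air had r 0.626 (permutation p = 0.0311, adjusted p = 0.0544).

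Replicate numbers do not pair the samples: deviations of the 11 same-numbered pairs correlated at a mean of −0.00592, against 0.00114 over 132 other pairs, and 2 of 11 air samples correlated best with their own number. With the replicate number as a block, 138 genes and 0 members were called. There Fasn was at a log2 ratio of 0.533 (adjusted p = 0.0572 by edgeR), and Acacb turned to −0.0347.

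The sign of the log2 ratio turned in 8 members, among them Scd2 (0.342) and Fads1 (0.15), whose values were not near 0. Fdps was at −0.000627 with RLE, −0.00323 with DESeq2, −8.73e-06 with voom, −0.00938 with no filter, −0.00087 without the 10 most abundant genes and −0.00143 with 1 surrogate variable. Ebp was at −0.00243 with voom. Without the 3 Schwann-high libraries Fdps was at −0.0198 and Ebp at −0.0226. With the Schwann covariate Fdps was at −0.0351, Ebp at −0.0543, Scd2 at −0.095 and Fads1 at −0.131. Over samples left out in turn Acat2 ran from −0.0653 to 0.0313, Fdps from −0.0531 to 0.0537, Cyp51 from −0.081 to 0.0142, Ebp from −0.0382 to 0.0564, Acacb from −0.0182 to 0.0511 and Elovl1 from −0.148 to 0.0472. Depth limits the 10 untested members, which had at most 22 counts in any library.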
